A study of Mus musculus with 6 samples.

Results

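Small nucleolar RNAs (snoRNAs) and small Cajal body RNAs (scaRNAs) were read from a liver array study of male mouse offspring. Of 30145 genes with a single platform symbol, 68 carry a symbol that starts with Snord, Snora or Scarna and a digit. They are 44 C/D box genes (Snord), 18 H/ACA genes (Snora) and 6 Cajal body genes (Scarna), measured by 72 probe sets. Each gene is represented by the probe set with the highest mean over the 6 arrays. A further 45 probe sets name such an RNA together with another gene, often its host, and are not members. The animals were 8 weeks old, and 6 arrays of whole liver RNA were compared. The 3 arrays titled HFD-inulin hold offspring of inulin-treated mothers, and the 3 titled HFD hold offspring of mothers on a high-fat diet. HFD stands in both titles, so by title the high-fat diet is common to both groups. Inulin is a fermentable plant fibre. The labels leave unstated the diet of the offspring, the dose and timing of inulin, the strain, any pooling of animals and the litters. A p-value here therefore reflects only how much these arrays vary, which may include technical variation. In whole liver, fewer cells of a type and less RNA per cell cannot be told apart. The comparison asks which hepatic RNAs differ between offspring of these mothers.

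C/D box RNAs guide 2'-O-methylation and H/ACA RNAs guide pseudouridylation, mostly of ribosomal RNA, each by base pairing with its target inside a protein particle. A few of them, such as U3, U8, U14 and U17, are needed for cutting the ribosomal precursor. Small Cajal body RNAs guide the same modifications of spliceosomal RNAs. In mammals most of these RNAs are cut out of introns of a host gene, often one for a ribosomal protein or a ribosome assembly factor.

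The reference tables held no sequence for any of the 68 members. They held hairpins of microRNAs that RefSeq places inside a few RNAs of the same kinds, and 3 of these are shown because they carry the ACA box near the 3' end that gives the H/ACA family its name. The stretches are from RefSeq on GRCm38.p6, written 5' to 3', and the capitals mark the ACA closest to 3 bases before the annotated end of the gene. A match of 3 letters is a description and not evidence of a working box.
Scarna3a (chr1:159340358-159340423, plus strand, also Mir1843b): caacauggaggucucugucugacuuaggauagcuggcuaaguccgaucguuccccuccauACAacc
Scarna3b (chr12:80391614-80391677, minus strand, also Mir1843a): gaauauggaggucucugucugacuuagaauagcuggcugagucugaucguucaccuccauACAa
Snora36b (chr1:185242975-185243038, plus strand, also Mir664): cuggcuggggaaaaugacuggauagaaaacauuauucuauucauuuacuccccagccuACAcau

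The 2 Scarna3 stretches aligned with 58 identical bases, 6 mismatches and 2 gapped bases. The ACA ended 4 bases before the gene's end in Scarna3a, 1 base in Scarna3b and 3 bases in Snora36b. The probe sets over these RNAs carry 2 names each and so stand outside the 68. Signals are written throughout as arrays 1, 2 and 3 of HFD-inulin against arrays 1, 2 and 3 of HFD, on the deposited log2 scale. The signal of the Scarna3a probe set was 1.70, 2.28 and 2.36 against 1.73, 1.67 and 1.68. That of the Scarna3b probe set was 3.19, 3.81 and 3.87 against 3.36, 2.94 and 3.46. In both, HFD-inulin arrays 2 and 3 were the highest 2 of the 6 and HFD-inulin array 1 lay among the HFD arrays. The Snora36b probe set gave 1.17, 1.81 and 1.71 against 1.72, 1.57 and 1.24, with no such order. The 3 were chosen after their values were seen.

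Over the whole table, limma called 0 of 65956 probe sets at an adjusted p under 0.05 (3399 at an unadjusted p under 0.05, and 4 with a trended and robust prior). The array medians ran from 1.17 to 1.26. Probe sets on chromosome Y that share their values exactly set 3 arrays (HFD-inulin 1 and 2 with HFD 1, mean log2 signal 1.34 to 1.91) apart from the other 3 (HFD-inulin 3 with HFD 2 and 3, 2.99 to 3.24). This split crosses the groups, and below the first are called low arrays and the second high arrays. The tissue label was checked against 5 measured hepatocyte genes, whose mean log2 signal over the 6 arrays was 9.82 to 11.5 each. Of these 5, 4 had a lower mean in HFD-inulin, and Cps1 differed by -0.68 with groups that did not overlap. The Kupffer cell gene Adgre1 (-0.32) and the endothelial gene Stab2 (-0.28) were also lower without overlap. Other genes of these lists went the other way. A higher mean in HFD-inulin was found in 2 of 5 Kupffer genes (Clec4f 0.03, Vsig4 0.02) and 1 of 5 endothelial genes (Clec4g 0.23). Of the other liver cell types, the neutrophil list had the widest range, with a list mean of 1.14 to 1.74 in HFD-inulin and 0.99 to 1.23 in HFD, and 4 of 5 had a higher mean in HFD-inulin. HFD-inulin array 2 alone set the top of that range: S100a8 was 2.33 and S100a9 2.34 there, against at most 0.91 and 1.43 in the other 5 arrays. Retnlg was also highest there (1.37). The list was not uniform, because Ngp was at its lowest there (0.68) and Ly6g (1.97) lay below HFD array 1 (2.06). The bile duct gene Krt19 was 3.04 in HFD-inulin array 2 against at most 1.93. The part of these cell markers in the values below was not tested.

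None of the 68 RNAs passed limma's adjusted threshold, and the smallest adjusted p among them was 0.902. At an unadjusted p under 0.05 there was 1, the C/D box RNA Snord14e, which is 1.47% of members beside 5.15% of all probe sets (2.52% higher and 2.64% lower). In 4 members the HFD-inulin and HFD arrays did not overlap, all 4 higher in HFD-inulin. That is 5.88% of members beside 10.3% of all probe sets, with 4.32% higher and 6.02% lower. Neither count stands far from the background. A higher mean in HFD-inulin was found in 41 of 68, or 60.3% beside 43.5% of all probe sets, and the median log2 difference was 0.06 over members and -0.02 over all probe sets. This contrast moved with the scaling. After quantile normalization the count was 36 beside 50.9% of all probe sets, with medians of 0.01 and 0.00, and after median centring it was 42 beside 56.2%. The count at an unadjusted p under 0.05 depended on single arrays. Leaving out HFD-inulin array 1, 2 or 3 gave 11, 0 and 3 members, beside 3.98%, 3.92% and 9.89% of all probe sets. Leaving out HFD array 1, 2 or 3 gave 13, 0 and 0 members, beside 6.12%, 3.18% and 3.36%. Of the 26 members named by rule, 23 had a difference that moved by over 1.5 times when some array was left out, and 6 of them changed sign. The other 3 were Snord14e, Snord23 and Snora78.

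**Figure D1:**
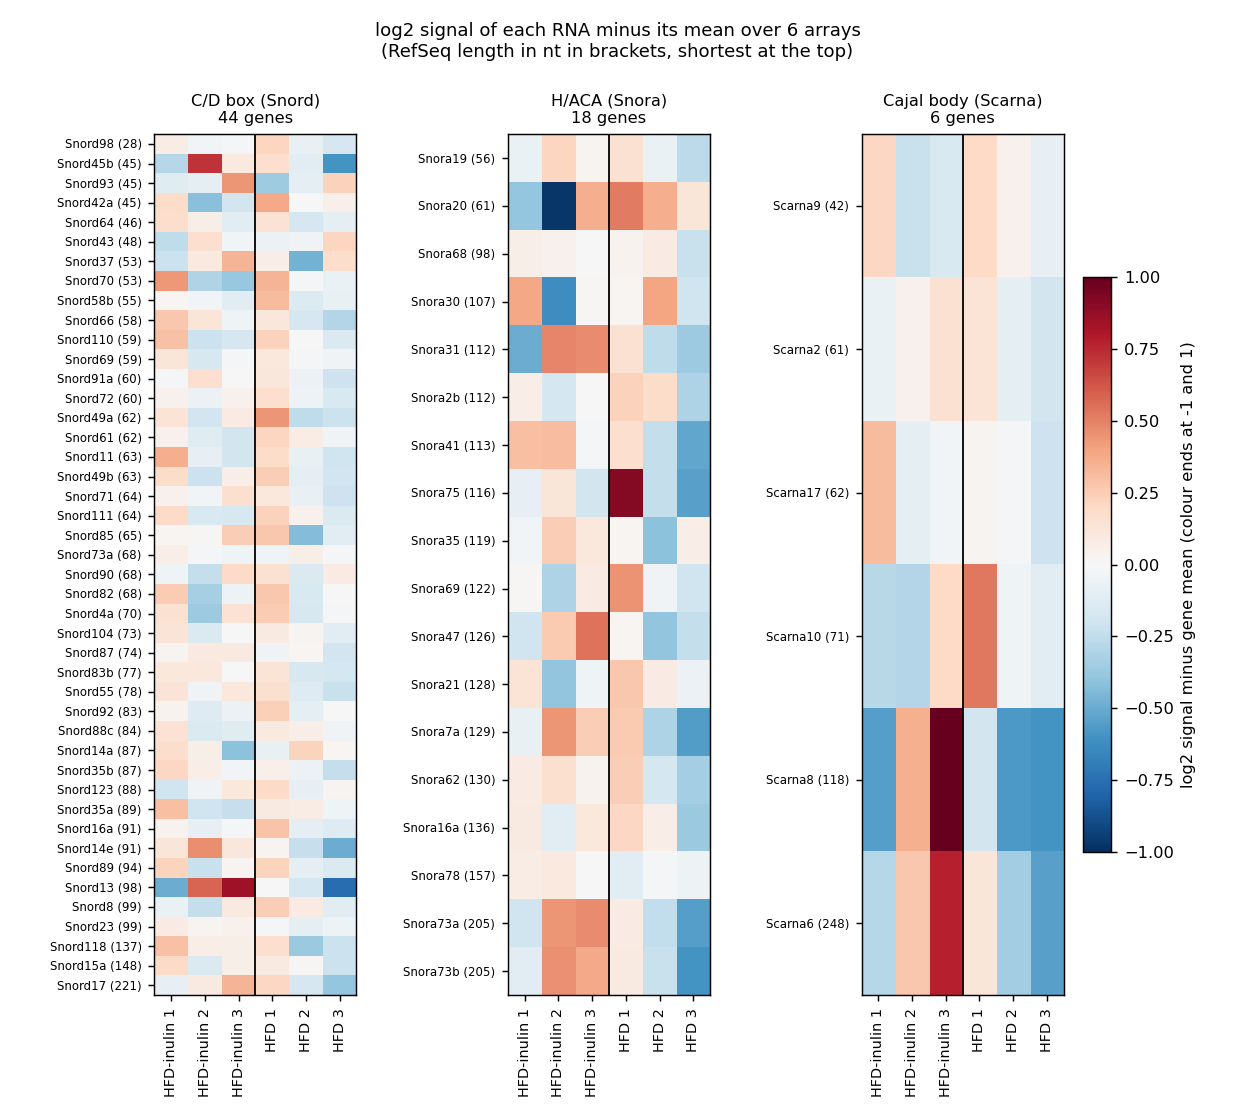
Heat map of the log2 signal of each of the 68 RNAs (rows) minus its own mean over the 6 arrays (columns), in 3 panels by class and ordered by RefSeq gene length in nucleotides (nt), with the shortest at the top; red is above and blue below the mean, and a black line parts the groups. Snord13, Scarna8, Scarna6 and both Snora73 genes are red in HFD-inulin arrays 2 and 3 and blue in HFD-inulin array 1 and HFD array 3.

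Among the C/D box RNAs needed for cutting the ribosomal precursor, Snord14e and Snord118 were measured. Snord14e, a U14 RNA from an intron of the heat shock cognate gene Hspa8, had a log2 signal of 6.54, 6.88 and 6.53 against 6.45, 6.19 and 5.92. All 3 HFD-inulin arrays lay above all 3 HFD arrays. The difference was 0.46 (SE 0.16, 1.38-fold, limma adjusted p = 0.902), and 0.33 to 0.59 with 1 array left out. Near-identical U14 copies lie in the same host gene, so the signal may not belong to Snord14e alone. A probe set over Hspa8 with its U14 copies gave 8.12, 8.04 and 7.91 against 8.02, 8.02 and 7.87.

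Snord13 (U13), transcribed from a gene of its own, ranged most among the C/D box RNAs. It measured 6.96, 8.03 and 8.30 against 7.46, 7.28 and 6.69. HFD-inulin arrays 2 and 3 were above all HFD arrays, while HFD-inulin array 1 was below 2 of them. The difference was 0.62 (SE 0.37, limma adjusted p = 0.902). Leaving out HFD-inulin array 3 gave 0.35, leaving out HFD array 3 gave 0.40 and leaving out HFD-inulin array 1 gave 1.02. It was 0.04 within the low and 1.32 within the high arrays. The second probe set of Snord13 gave 6.78, 8.07 and 8.29 against 7.39, 7.23 and 6.60, with the same order of arrays. Snord118 (U8), needed for maturation of the large-subunit RNAs and also without a containing gene, measured 5.09, 4.87 and 4.86 against 4.97, 4.43 and 4.59. Here HFD array 1 lay within the HFD-inulin range, and the difference was 0.28 (SE 0.15, limma adjusted p = 0.902). A second probe set for Snord118, numbered on another chromosome, stayed at 0.25 to 0.59 in all arrays, below the median probe set of 1.22.

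Snord87 measured 7.26, 7.32 and 7.32 against 7.20, 7.25 and 7.04, and Snord23 measured 6.17, 6.11 and 6.13 against 6.07, 5.99 and 6.03. In both the groups did not overlap, although the differences were small, 0.14 (SE 0.08) for Snord87 and 0.10 (SE 0.06) for Snord23. These differences moved with the scaling. They were 0.02 and 0.04 after quantile normalization, and 0.17 and 0.13 after median centring. Snord66, inside the initiation factor gene Eif4g1, gave 7.21, 7.06 and 6.90 against 7.06, 6.78 and 6.66, a difference of 0.23 with overlapping groups. Snord61, inside Rbmx, was on the lower side with 7.89, 7.73 and 7.67 against 8.07, 7.93 and 7.81, a difference of -0.17 (SE 0.10). The adjusted p of these 4 was 0.902 in limma.

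Snord35a lies in the ribosomal protein gene Rpl13a, whose intronic snoRNAs have been linked to cell death under lipid overload. It measured 8.20, 7.70 and 7.67 against 7.99, 7.97 and 7.86. HFD-inulin array 1 was the highest of the 6 and the other 2 HFD-inulin arrays the lowest, so the difference of -0.08 (SE 0.15, limma adjusted p = 0.956) joins opposite deviations. The probe set of Rpl13a that also names Snord32a, Snord33 and Snord34 measured 6.13 to 6.49 in HFD-inulin and 5.94 to 6.12 in HFD. Its groups did not overlap, and it was on the higher side (difference 0.32, SE 0.11, limma adjusted p = 0.902). The C/D box members with the highest mean signal were Snord104, Snord69, Snord55 and Snord16a. Their differences were -0.01, -0.04, 0.13 and -0.04, and the 6 arrays spanned 0.27, 0.28, 0.38 and 0.42. Signals of different probe sets are not on a common scale, so no order of abundance is drawn.

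**Figure D2:**
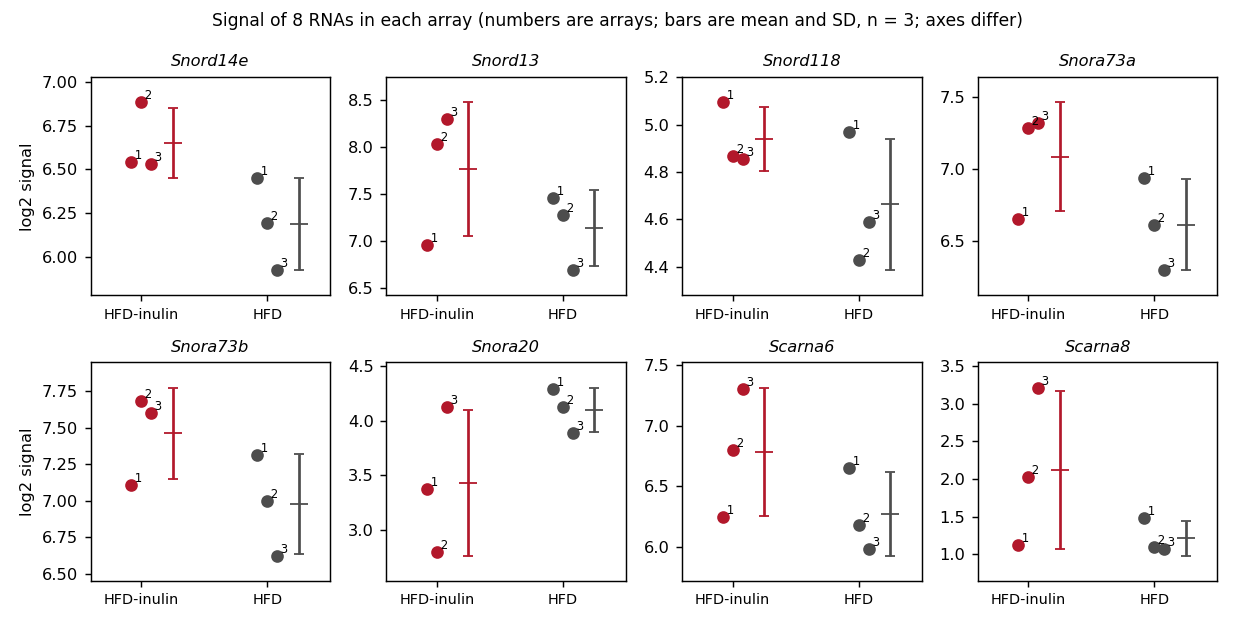
Log2 signal of 8 RNAs in each array, with points for single arrays numbered 1 to 3 and bars for the mean and SD (n = 3 per group); the vertical axes differ and do not start at 0. Only Snord14e has all HFD-inulin points above all HFD points, and in Snord13, Snora73a, Snora73b, Scarna6 and Scarna8 the HFD-inulin arrays 2 and 3 are the highest of the 6.

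Among the H/ACA RNAs, Snora73a and Snora73b encode U17, which acts in processing of small-subunit ribosomal RNA, and RefSeq places both inside Snhg3. Snora73a measured 6.65, 7.29 and 7.32 against 6.94, 6.61 and 6.30. Snora73b measured 7.11, 7.68 and 7.60 against 7.31, 7.00 and 6.63. In both genes HFD-inulin arrays 2 and 3 were on top and HFD array 3 at the bottom, and HFD-inulin array 1 lay below HFD array 1. The differences were 0.47 (SE 0.23) and 0.48 (SE 0.22), or 1.39-fold and 1.40-fold, with a limma adjusted p of 0.902. Without HFD array 3 they were 0.32 and 0.31. Within the low arrays they were 0.03 and 0.08, and within the high arrays 0.87 and 0.79. The 2 genes are near-identical copies and may share signal, so they are not separate observations. The probe set of Snhg3 that also names Snora73a gave 3.39, 3.85 and 3.52 against 3.47, 3.47 and 3.26, with the array order of HFD-inulin 2 first and HFD 3 last.

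Snora47 measured 7.23, 7.69 and 7.97 against 7.45, 7.03 and 7.19, a difference of 0.40 (SE 0.20). Snora41, inside the elongation factor gene Eef1b2, measured 3.25, 3.26 and 2.94 against 3.12, 2.71 and 2.43, also a difference of 0.40 (SE 0.18). The groups overlapped in both. Snora47 was at 0.23 without HFD-inulin array 3 and Snora41 at 0.24 without HFD array 3. Snora78 was the only H/ACA RNA whose groups did not overlap, at 3.70, 3.73 and 3.63 against 3.52, 3.60 and 3.57, with a difference of 0.12 (SE 0.06). RefSeq places it inside 2 genes, Rps2 and Snhg9, so part of its signal may come from them. Snora20, inside the chaperonin gene Tcp1, had the lowest difference of all members, -0.67 (SE 0.32). It measured 3.38, 2.79 and 4.13 against 4.29, 4.13 and 3.89, and HFD-inulin array 3 lay within the HFD range. Its difference was -1.20 within the low and 0.12 within the high arrays, -1.02 without HFD-inulin array 3 and -0.35 without HFD-inulin array 2. The adjusted p of these 4 RNAs was 0.902 in limma. Snora21, which guides modification of large-subunit RNA and lies in Rpl23, measured 7.48, 6.94 and 7.29 against 7.61, 7.42 and 7.28, with a difference of -0.20 (SE 0.15, limma adjusted p = 0.912). Snora16a, in Snhg12, differed by 0.06 over arrays that spanned 0.58.

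Of the Cajal body RNAs, Scarna8 had the widest range over the 6 arrays of any member. It measured 1.12, 2.02 and 3.21 against 1.48, 1.09 and 1.07. Its difference of 0.90 (SE 0.49, 1.87-fold, limma adjusted p = 0.902) was the highest of all members, and 4 of the 6 arrays were at 1.48 or lower, close to the median probe set of 1.22. HFD-inulin array 3 carried most of it: the difference was 0.36 without that array and 1.40 without HFD-inulin array 1, and 0.09 within the low and 2.13 within the high arrays. Scarna6 measured 6.25, 6.80 and 7.31 against 6.65, 6.18 and 5.98, a difference of 0.51 (SE 0.29, limma adjusted p = 0.902). That difference was -0.13 within the low and 1.22 within the high arrays, 0.25 without HFD-inulin array 3 and 0.78 without HFD-inulin array 1. In both RNAs HFD-inulin arrays 3 and 2 were the highest, in that order. Scarna10 gave -0.25, Scarna17 0.13, Scarna2, which guides modification of U2, 0.09 and Scarna9 -0.11, with a limma adjusted p between 0.920 and 0.944. Scarna9 lay below the median probe set, as did 1 of 18 Snora and 4 of 44 Snord genes.

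The C/D box and H/ACA classes were then compared in each array through class means, the mean over genes of the log2 signal minus the gene's mean over 6 arrays. For Snord the class mean was 0.08, -0.03 and 0.03 against 0.15, -0.09 and -0.13. For Snora it was -0.02, 0.04 and 0.15 against 0.21, -0.08 and -0.29, and for Scarna -0.11, 0.01 and 0.42 against 0.14, -0.17 and -0.29. All 3 classes had positive means in HFD array 1 and negative ones in HFD arrays 2 and 3, so the HFD arrays spanned the whole HFD-inulin range for Snord and Snora and overlapped it for Scarna. HFD array 1 was the highest of the 6 arrays for 18 of 44 Snord, 7 of 18 Snora and 1 of 6 Scarna genes, and HFD array 3 the lowest for 16, 10 and 4. The shares over all members were 38.2% and 44.1%, beside 19% and 13.8% of all probe sets.

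The class difference between groups was 0.05 for Snord, 0.11 for Snora and 0.21 for Scarna, with SDs between arrays of a group of 0.11, 0.19 and 0.25. Each difference was smaller than that spread, and no p is given because the members were chosen with earlier results known. In the low arrays the class differences were -0.12, -0.20 and -0.19, and in the high arrays 0.13, 0.33 and 0.65, so the sign was opposite in the 2 sets of arrays. HFD in the low set is HFD array 1 alone and HFD-inulin in the high set is HFD-inulin array 3 alone, so each of these values rests on that array. Without HFD array 3 they were -0.01, -0.01 and 0.12. Quantile normalization lowered the Snord and Snora values to 0.01 and 0.06 and turned the median over Snord genes from 0.02 to -0.02. Median centring raised the 2 class values to 0.08 and 0.14.

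The Snord mean minus the Snora mean was 0.10, -0.07 and -0.12 against -0.06, -0.01 and 0.16. C/D box RNAs thus stood above H/ACA RNAs in HFD-inulin array 1 and HFD array 3, relative to their own means, and below them in the other 4 arrays. The difference between groups was -0.06, with an SD between arrays of 0.12. It was 0.076 within the low and -0.20 within the high arrays, and 0.00 without HFD array 3. The spread of single members was wider for Snora, whose 18 differences ran from -0.67 to 0.48 (SD 0.30), than for Snord, whose 44 ran from -0.28 to 0.62 (SD 0.17). This difference in spread was not tested.

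**Figure D3:**
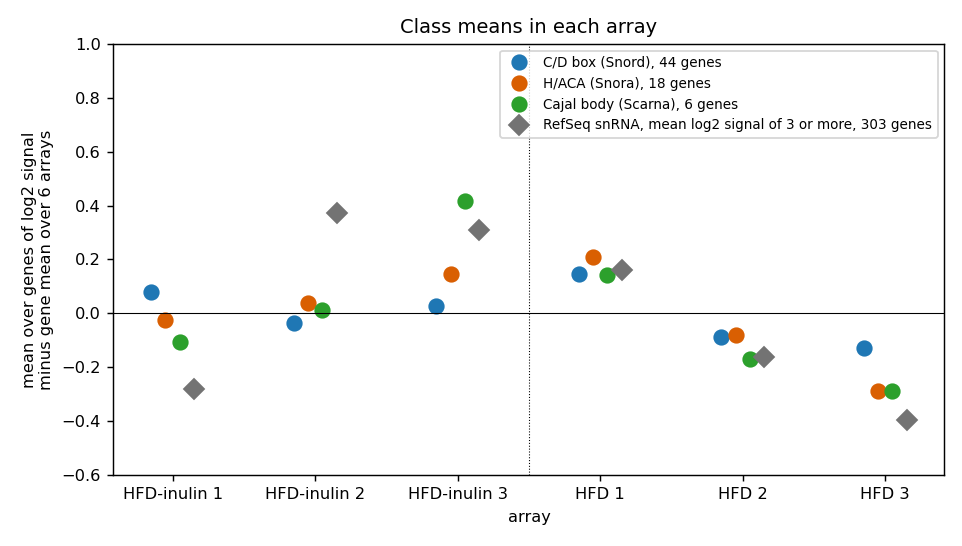
Class means in each array, as the mean over genes of the log2 signal minus the gene's mean over the 6 arrays, for Snord, Snora and Scarna genes and for 303 genes that RefSeq types as snRNA (grey diamonds). HFD array 1 is above 0 and HFD array 3 below 0 for all 4 sets, and the grey diamonds reach 0.37 in HFD-inulin array 2 and -0.40 in HFD array 3.

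The classes differ in the length that RefSeq gives, and the array pattern went with that annotated length. The median length was 68 nt for Snord, 120.5 nt for Snora and 66.5 nt for Scarna. Annotated lengths ran from 28 to 221 nt for Snord, 56 to 205 nt for Snora and 42 to 248 nt for Scarna. Whether each entry spans the whole RNA was not checked. Annotated length alone placed 41 Snord, 3 Snora and 4 Scarna genes under 100 nt, Snora20 (61 nt) among them. Of 20 members of 100 nt or more, 15 had a higher mean in HFD-inulin, with a median difference of 0.22. Of the 48 shorter ones 26 did, with a median of 0.02. The mean of the longer members was -0.02, 0.10 and 0.25 against 0.17, -0.16 and -0.34, and that of the shorter ones was 0.06, -0.06 and 0.03 against 0.16, -0.06 and -0.12. HFD-inulin arrays 2 and 3 were thus above the mean for the longer RNAs, but HFD array 1 overlapped them. HFD-inulin arrays 2 and 3 were the highest 2 of the 6 arrays in 7 of the 20 longer members and 2 of the 48 shorter ones, beside 4.5% of all probe sets. The 9 are Snora73a, Snora73b, Snora31, Snora47, Snora35, Scarna6, Scarna8, Snord13 and Snord87, of which Snord13, at 98 nt, is just short of the limit.

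The limit of 100 nt and the array order counted above were set after the data were examined. The order was seen in some of the members in which it was then counted, so these counts are a description and no test. With limits of 80, 90, 110 and 120 nt the mean difference was 0.16, 0.20, 0.24 and 0.22 for the longer members and 0.00, -0.01, 0.01 and 0.04 for the shorter. The longer members' mean difference of 0.22 was close to its SD between arrays of 0.21, and it was -0.13 within the low and 0.50 within the high arrays. Across the 68 genes, which share the same 6 arrays and are not independent, Spearman's rho between length and difference was 0.32. It was 0.11 over 44 Snord, 0.50 over 18 Snora and 0.29 over the 66 members left without Scarna8 and Snord13. Among RNAs of 100 nt or more the class difference was 0.19 for 3 Snord and 0.16 for 15 Snora genes. Among shorter RNAs it was 0.04 for 41 Snord and -0.16 for 3 Snora genes, one of which is Snora20. Each like-length comparison of the classes thus rests on 3 RNAs of one class.

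**Figure D4:**
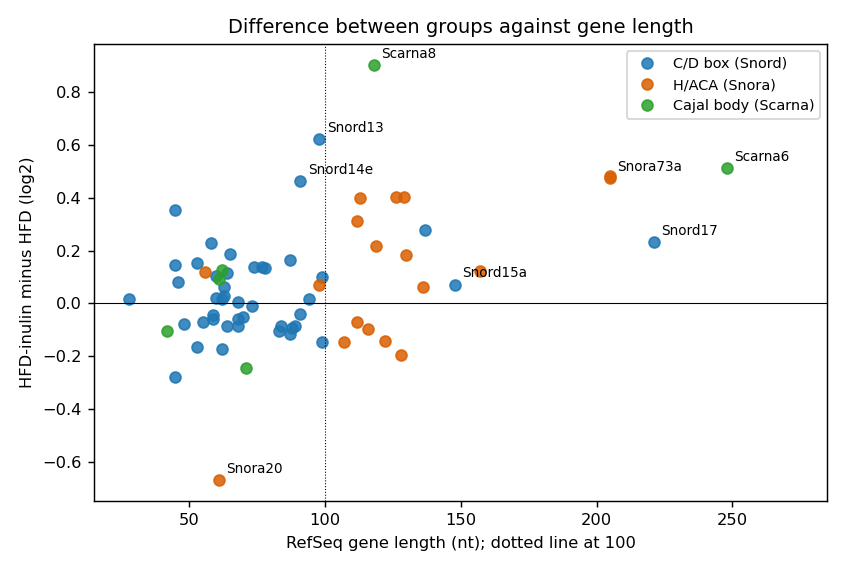
Difference between groups (HFD-inulin minus HFD, log2) of each of the 68 RNAs against its RefSeq length in nt, coloured by class, with a dotted line at 100 nt. Points right of the line have a median of 0.22 and those left of it 0.02, and Snora20 and Snord13 stand farthest from 0 among the short ones.

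Other small RNAs were set beside these. Of 303 genes that RefSeq types as snRNA (spliceosomal RNAs and their many annotated copies, 234 distinct profiles) with a mean log2 signal of at least 3, 212 (70.0%) had HFD-inulin arrays 2 and 3 as the highest 2. Over all 914 snRNA genes, dim ones included, it was 301 (32.9%), with a difference of 0.11. The mean of the 303 was -0.28, 0.37 and 0.31 against 0.16, -0.16 and -0.40, with a difference of 0.27 and an SD between arrays of 0.32. Among genes RefSeq types as snoRNA but with another symbol, 143 reached that level, and 14 of them showed the order. Their mean was -0.06, -0.24 and 0.20 against -0.16, 0.20 and 0.06, negative in the 3 low arrays and positive in the 3 high arrays. At that level Spearman's rho between length and difference was 0.46 over 49 members and 0.32 over these 143. It was 0.64 over 62 genes typed as rRNA (22 distinct profiles) and -0.57 over the 303 snRNA genes. Genes that share a profile were counted separately in these values. At all levels it was 0.32 over the 68 members, 0.33 over 893 other snoRNA genes and 0.03 over the 914 snRNA genes. Over 31 further genes that RefSeq types as guide RNA the rho had the opposite sign, -0.48. It was -0.63 over the 12 of these with a mean log2 signal of at least 3. Of 7 other stable small RNAs, Rmrp, the RNA of RNase MRP, was the only one at an unadjusted p under 0.05, with 9.84, 10.16 and 9.93 against 9.85, 9.36 and 9.33 (difference 0.47, SE 0.16, limma adjusted p = 0.902). Rpph1, the RNA of RNase P, gave -0.26, and Rn7sk -0.0047. The Y RNA genes Rny1 and Rny3 were highest in HFD array 1, at 8.33 and 10.36, as were Rn7sk, Rpph1 and Vaultrc5. Rmrp and Terc were highest in HFD-inulin array 2. Among the members, HFD array 1 was the highest for 40.9% of Snord and 38.9% of Snora genes.

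The mRNAs of the particle proteins were read from the same arrays. Of the C/D box particle, Fbl, which encodes the methyltransferase fibrillarin, measured 5.11, 5.15 and 5.14 against 5.04, 4.97 and 4.86, a difference of 0.18 with groups that did not overlap, and Nop58 gave 0.32 with overlap. Nop56 and Snu13 are not analysed here. All 4 genes of the H/ACA particle had a higher mean in HFD-inulin, as did 43.5% of all probe sets, with a median of 0.06. Nhp2 gave 0.23 and Nop10 0.10, while the pseudouridine synthase gene Dkc1 gave 0.01. All 10 assembly factors had a higher mean, with a median of 0.15, and 1 of them was under an unadjusted p of 0.05, as were 5.15% of all probe sets. It is the ATPase gene Ruvbl2 (0.16, groups apart). Its partner Ruvbl1 gave 0.25. All 4 measured Cajal body genes had a higher mean, with a median of 0.12, including Gemin2 (0.24) and Wrap53 (0.20), which binds small Cajal body RNAs. None of these 20 genes passed limma's adjusted threshold, with an adjusted p of 0.902 or more. After quantile normalization 9 of the 10 assembly factors and all genes of the other 3 lists had a higher mean, beside 50.9% of all probe sets, and after median centring all 20 did, beside 56.2%. The mean level of each of the 4 lists was highest in HFD-inulin array 2, and that of HFD-inulin array 3 lay below HFD array 1. The assembly factors, for example, had list means of 3.23, 3.36 and 3.12 against 3.18, 3.07 and 3.06. The median over all probe sets was -0.02 as deposited. Over 7091 protein-coding genes with a mean log2 signal of at least 3 it was 0.03, and over all 19214 protein-coding genes -0.01. The mean of the 7091, each taken from its own mean, was 0.05, 0.04 and -0.04 against 0.03, -0.04 and -0.04. In that wider set, too, HFD-inulin array 3 lay below HFD array 1.

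RefSeq places 58 of the 68 members inside 1 protein-coding or lncRNA gene, 6 inside several and 4 inside none (Snord13, Snord118, Snord89 and Scarna2). The table used gives no strand, so these are containing genes rather than proven hosts. For 31 members the containing gene had a probe set under 1 name, which covers 29 genes. Of these 29 genes, 21 had a higher mean in HFD-inulin, with a median difference of 0.12, beside 43.5% of all probe sets. The count was 23 after quantile normalization, beside 50.9%, and 25 after median centring, beside 56.2%. At an unadjusted p under 0.05 there were 5, Snhg18, Tcp1, Rpl4, Rpsa and Rps3a1, all higher, beside 2.52% of all probe sets in that direction. The mean over the 29 genes, each taken from its own mean, was 0.07, 0.19 and -0.06 against -0.01, -0.09 and -0.10. HFD-inulin array 2 was the highest and HFD-inulin array 3 lay below HFD array 1, so the groups overlapped. Over 7091 protein-coding genes with a mean log2 signal of at least 3 the median difference was 0.03. There, too, HFD-inulin array 3 lay below HFD array 1. The small RNA and its containing gene had the same sign in 14 of 31 pairs. In 12 the gene was higher and the small RNA lower, and in 5 the reverse.

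Snora20 and Tcp1 were farthest apart. Tcp1 measured 5.25, 5.13 and 4.88 against 4.82, 4.76 and 4.70, a difference of 0.32 beside -0.67 for its snoRNA. The ribosomal protein gene Rpl4 gave 0.47 beside -0.04 for Snord16a, and Rpsa gave 0.48 beside 0.18 for Snora62. Hspa8 gave -0.01 beside 0.46 for Snord14e, Haus6 gave 0.12 beside 0.90 for Scarna8, and Atg16l1 gave 0.15 beside 0.51 for Scarna6. Across the 31 pairs, which share arrays, Spearman's rho between the differences was -0.13. Containing genes without a probe set under 1 name were left out of these pairs. For Hspa8 the pair used a probe set under that name alone, not the one that also names its U14 copies.

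**Figure D5:**
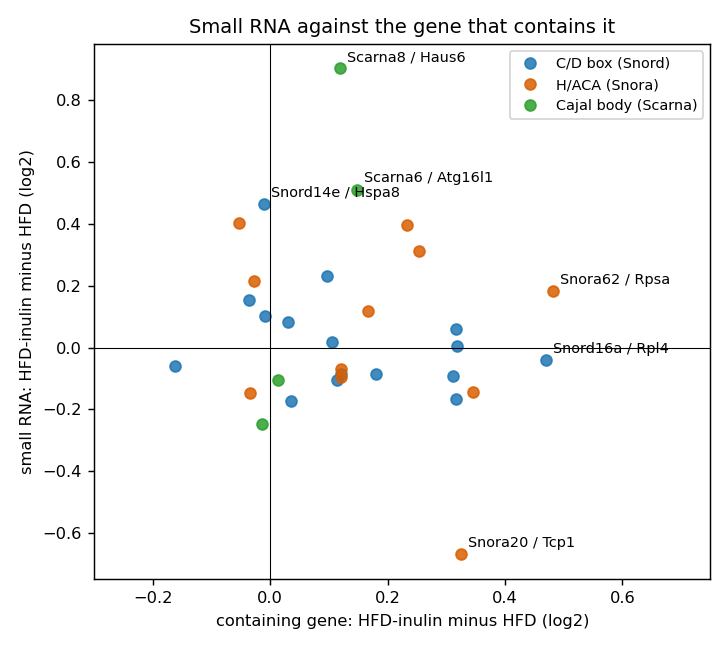
Difference between groups (HFD-inulin minus HFD, log2) of 31 small RNAs (vertical axis) against that of the gene RefSeq places them in (horizontal axis), coloured by class. In 21 of 29 genes the point lies right of the vertical line at 0, and the 2 differences share a sign in 14 of 31 pairs.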

How the data were processed

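Liver RNA prepared with TRIzol was biotin-labelled and run on 6 Affymetrix arrays, per the labels. The deposited values are the authors' log2 signals of 65956 probe sets. The submitters' processing notes name Affymetrix Expression Console 1.0. How probes were summarized and background-corrected, any filter, and the build of the array design: not given in the sources used here. Base 2 was inferred from values that end in the low teens. Detection calls and scanner files were not used, so no scan batch was tested. With 3 arrays per group, precision is limited by their number.

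Probe sets were named by GEO's platform annotation: 30604 have a single symbol, 2146 several and 33206 none. Members were taken by platform symbol. Other genes had older symbols updated through RefSeq (GRCm38.p6), which also gave lengths, types and containing genes. HFD-inulin was compared with HFD by limma 3.58.1 in R 4.3.3 (lmFit, then eBayes) fitted to all probe sets, two-sided, with no filter or covariate and Benjamini-Hochberg adjustment over all of them at 0.05. In simulated data for this comparison with 65956 probe sets, 19 of 50 planted log2 changes of 0.585, 35 of 50 of 1, 47 of 50 of 2 and 45 of 50 of 3 were recovered, with 8 false calls. The simulated noise was normal and independent between probe sets, with the SD estimated for each. It holds no variation shared within an array, such as the array split, so these rates do not give the power in the real arrays.

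The members, gene lists and naming rule were chosen with earlier results of these data known. The rule names, per class, the members with the smallest unadjusted p (6 Snord, 6 Snora, 3 Scarna) and the highest mean (4, 4 and 2), up to 4 each way whose groups did not overlap, and 22 anchors. Of the anchors 9 were measured under a single symbol. The others have no value of their own here, though some share a probe set with a host gene that is named. The 9 RNAs listed by array order, the Rpl13a probe set, Snora62 with Rpsa, Dkc1 and the cell markers given singly were named after their values were seen. So were the Y RNA genes, Rn7sk, Terc, Vaultrc5 and the RNAs whose sequences are shown. The array split comes from values, not from a label.

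Alternatives were another variance prior, no dim probe sets, quantile normalization, median centring, the replicate number as a block, the array split as a block and within each set of arrays, each array left out, other probe sets per gene, and no shared profiles. The length groups, the counts by array order and the rescaled counts of the gene lists were added after the data were seen.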

Additional observations from a re-analysis of the deposited data

How the results depend on the processing

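No named RNA was called under any alternative run (smallest adjusted p in limma 0.168). All probe sets gave 4 calls with a trended and robust prior and 0 under the other settings run. The count of members at an unadjusted p under 0.05, 1 as reported, was 2 after quantile normalization (all probe sets 4.67%), 4 with the array split as a block (5.19%), 5 within the low (5.64%) and 19 within the high arrays (6.58%), and 0 to 13 when 1 array was left out. With the replicate number as a block it was 5 (5.08%). The same-numbered arrays' deviations correlated at 0.26, -0.28 and 0.40, so the numbers were not read as pairs. Within the low arrays the class differences were -0.12 for Snord, -0.20 for Snora and -0.19 for Scarna, and Snord minus Snora was 0.076. The longer members gave -0.13 and the shorter ones -0.16. Within the high arrays Snora gave 0.33, Scarna 0.65, Snord minus Snora -0.20 and the longer members 0.50. In each set 1 group is a single array (HFD 1 or HFD-inulin 3), assumed to vary like the others, so these counts and differences rest on that array and are no independent check. With 1 array left out, Snord ran from -0.01 to 0.13, Snora from -0.01 to 0.24, Scarna from 0.06 to 0.34, the longer members from 0.11 to 0.36, the shorter from -0.04 to 0.10, and Snord minus Snora from -0.13 to 0.0044.

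Of 363 alternative values of the 26 named RNAs, 19 had the opposite sign, and 6 changed sign by more than the SD between arrays. Within the low arrays these 6 were Scarna2 (-0.15), Scarna6 (-0.13), Snora16a (-0.21) and Snord55 (-0.11), and within the high arrays Scarna10 (0.28) and Snora20 (0.12). The cause was not tested. The member count was not run on means of a gene's probe sets, and Scarna9, below the median probe set, has no value with dim probe sets left out. With no detection calls, no level below the median probe set was read as absent.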

Other observations

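Probe sets that name a C/D box RNA of the imprinted Snord116 cluster together with its host transcripts Gm26504 and Ipw shared 1 profile in 3 copies. On the log2 scale this profile was 4.74, 3.87 and 5.75 against 3.11, 6.11 and 5.87. All 3 high arrays were above all 3 low arrays, and the difference between groups was -0.25 (SE 0.86, limma adjusted p = 0.976). The 62 genes RefSeq types as rRNA (22 distinct profiles) had a class mean of -0.08, 0.13 and 0.13 against 0.10, -0.10 and -0.18, and in 37 of them HFD-inulin arrays 2 and 3 were the highest 2.

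The probe set of the lncRNA Gas5 that also names Snord47 measured 2.92, 3.31 and 2.91 against 2.91, 2.86 and 2.75, a difference of 0.20 (limma adjusted p = 0.902).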
